A study of Mus musculus with 9 samples.

Results

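In thymic lymphoma cells of mice, 1855 of 87072 H3K27ac peaks (2.13%) overlapped a peak of H3K27me3 and no peak of H3K4me3. These sites, called dual-marked peaks here, were the distinct H3K27ac peaks on the 19 autosomes, X and Y that shared at least 1 bp with the H3K27me3 list and none with the H3K4me3 list. They made up 2.61% of the 71073 H3K27ac peaks off H3K4me3. The other H3K27ac peaks served as comparison: 69218 had neither H3K27me3 nor H3K4me3 (acetylated-only peaks), 1161 had both (dual-marked H3K4me3 peaks), and 14838 had H3K4me3 without H3K27me3.

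The cells were MYCN-driven T cell lymphoma cells from the thymus of C57BL/6J mice, with no other genotype, treatment or age given in the labels. Chromatin was profiled by ChIPmentation, an immunoprecipitation in which a transposase adds the sequencing adapters on the beads, with antibodies to H3K27ac, H3K27me3, H3K4me3, EZH2, SUZ12, p300 and N-MYC. All 7 antibodies had 1 library and 1 peak list each, and 2 input libraries without a list were not used here. The labels name neither the animal behind each library nor the promoter that drives MYCN, and there was no untreated or healthy group.

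A single library per antibody gives no replicate check, so no p-value is given for any difference. Intervals are 95% Wilson intervals for shares and order-statistic intervals for medians. They treat peaks as independent and cover counting error only. The depth behind the lists is unknown, and a peak that is missing from a list was not called at the authors' threshold, which does not show that the protein or mark was absent. The lists held 9798 (N-MYC) to 123056 (H3K27me3) peaks, and all 8 T-cell marker genes examined had both an H3K4me3 and an H3K27ac peak within 1 kb of a gene end.

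Lysine 27 of histone H3 can carry an acetyl group or methyl groups, but not both at once. Acetylation by p300 and its paralog CBP marks active enhancers and promoters, whereas trimethylation by Polycomb repressive complex 2 (PRC2), with EZH2 as the catalytic subunit and SUZ12 as a core subunit, marks silenced genes. Trimethylated lysine 4 marks promoters, and promoters that carry it together with H3K27me3 are called bivalent. In bulk chromatin, both marks on neighbouring nucleosomes, on different alleles or in different cells cannot be told apart, nor can fewer cells with a mark and less of it per cell.

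Most dual-marked peaks lay away from promoters, and 59 of them covered part of a promoter window in the reference table, which spans 250 bases before to 50 after a start (69 of 32851 windows, from 59 genes). The 250 bases before the start are printed for 4 such genes because they show the sequence under dual-marked peaks at promoters, followed by 2 promoters that carried H3K4me3 as well and so lay outside the rule. All 6 were chosen after their values were seen. They are RefSeq sequences of GRCm38.p6, written on the strand of the gene with CG dinucleotides in capitals. Hba-x encodes the embryonic zeta globin, Pdzk1ip1 a small membrane protein encoded next to Tal1, Trim15 a tripartite motif protein, and Tnfrsf25 a death-domain receptor of T cells.
Hba-x, chr11:32276350-32276599, plus strand: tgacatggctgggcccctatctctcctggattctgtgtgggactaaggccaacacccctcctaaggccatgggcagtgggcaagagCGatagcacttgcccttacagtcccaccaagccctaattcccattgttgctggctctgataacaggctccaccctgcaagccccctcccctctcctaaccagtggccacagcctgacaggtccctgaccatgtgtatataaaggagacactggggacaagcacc
Pdzk1ip1, chr4:115088458-115088707, plus strand: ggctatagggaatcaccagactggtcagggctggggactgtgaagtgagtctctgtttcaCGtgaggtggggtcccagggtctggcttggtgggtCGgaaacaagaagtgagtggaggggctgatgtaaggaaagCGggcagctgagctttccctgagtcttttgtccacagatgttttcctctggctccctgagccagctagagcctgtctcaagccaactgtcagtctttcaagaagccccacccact
Trim15, chr17:36867188-36867437, minus strand: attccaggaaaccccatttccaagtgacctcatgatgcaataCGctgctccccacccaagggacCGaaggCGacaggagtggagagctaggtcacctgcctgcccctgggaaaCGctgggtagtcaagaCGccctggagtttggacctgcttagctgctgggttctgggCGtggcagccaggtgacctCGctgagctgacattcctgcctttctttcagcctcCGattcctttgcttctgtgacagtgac
Tnfrsf25, chr4:152115684-152115933, plus strand: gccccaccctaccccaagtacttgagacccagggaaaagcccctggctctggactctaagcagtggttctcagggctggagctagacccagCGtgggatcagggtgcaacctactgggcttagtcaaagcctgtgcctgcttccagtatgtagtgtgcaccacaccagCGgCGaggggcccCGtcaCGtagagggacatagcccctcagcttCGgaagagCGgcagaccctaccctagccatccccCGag
Tal1, H3K4me3 present, chr4:115056176-115056425, plus strand: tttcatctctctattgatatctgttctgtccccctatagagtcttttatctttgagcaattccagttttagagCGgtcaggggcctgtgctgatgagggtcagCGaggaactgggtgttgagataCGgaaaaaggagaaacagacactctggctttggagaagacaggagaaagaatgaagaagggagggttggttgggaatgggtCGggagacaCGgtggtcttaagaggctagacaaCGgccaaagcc
Hoxb4, H3K4me3 present, chr11:96318017-96318266, plus strand: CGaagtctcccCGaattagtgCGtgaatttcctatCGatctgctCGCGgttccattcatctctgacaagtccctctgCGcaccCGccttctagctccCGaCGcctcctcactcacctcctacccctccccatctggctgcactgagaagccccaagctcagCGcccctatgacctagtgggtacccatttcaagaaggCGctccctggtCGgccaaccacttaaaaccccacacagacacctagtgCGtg

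The 4 promoters under dual-marked peaks differed in their CG content and in the strength of both marks at those peaks. The Hba-x sequence held 1 CG and was covered over 161 bases by an H3K27ac peak of fold enrichment 3.63, on an H3K27me3 peak of 7.96. Fold enrichment is the ratio of a peak's signal to the background, as the authors deposited it. Pdzk1ip1 held 3 CG and was covered in full, with an H3K27ac fold enrichment of 2.44 and an H3K27me3 fold enrichment of 11.9. Trim15 held 8 CG, an H3K27ac peak of 4.59 and an H3K27me3 peak of 17.9, and its dual-marked peak also met a SUZ12 peak of 4.11. Tnfrsf25 likewise held 8 CG, with values of 4.84 for H3K27ac and 3.24 for H3K27me3. There H3K27me3 overlapped 781 bp of the H3K27ac peak, and whether this stretch included the printed bases was not read. The 2 contrast promoters had H3K4me3 peaks of 19.9 (Tal1, 6 CG) and 29.5 (Hoxb4, 14 CG), and both met EZH2 and SUZ12 peaks.

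Across all 69 covered windows the median number of CG dinucleotides was 6 (5 to 7), nearer to the 4 of the 1178 windows under acetylated-only peaks than to the 26 under dual-marked H3K4me3 peaks. Windows under H3K4me3 peaks without H3K27me3 had a median of 22, and all windows had 7. Median GC content was 54.7% (52.3 to 56.3) at dual-marked peaks, 51.7% at acetylated-only peaks, 66.3% at dual-marked H3K4me3 peaks and 52.7% over all windows. The promoters under dual-marked peaks thus held fewer CG dinucleotides than those under either class on H3K4me3, but the classes differed in gene type. Windows of protein-coding genes were 33 of 69 at dual-marked and 506 of 1178 at acetylated-only peaks. On H3K4me3 they were 489 of 568 with and 9200 of 10567 without H3K27me3. All protein-coding windows had a median of 13 CG, and the part of gene type in the difference was not tested. Some windows were covered over few bases (2 at Atp8b3). Coverage is that of the H3K27ac peak, and H3K27me3 over the window itself was not read. A search on both strands of the 300-base windows covered 4 short motifs, none of which contains another. The E-box CACGTG, which MYC proteins bind, lay in 8.70% of the 69 windows against 7.15% of all windows, the RUNX motif TGTGGT in 15.9% against 16.8% (24.8% under acetylated-only peaks), and the GATA motif AGATAA in 15.9% (9.14 to 26.3) against 11.2% (14.9% under acetylated-only peaks). In the 42 windows with at least 150 bases covered the GATA share was 9.52% (3.77 to 22.1). The ETS motif CCGGAAGT, present in 3.89% of all windows, was in none of the 69. A match or its absence describes these windows and says nothing of binding.

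The members were chosen by the calls of H3K27ac, H3K27me3 and H3K4me3, so the strengths and geometry of these marks are given as a description. Dual-marked peaks were short, with a median width of 357 bp against 364 bp for acetylated-only peaks and 1672 bp for H3K4me3 peaks without H3K27me3. Their median H3K27ac fold enrichment was 3.79 (3.74 to 3.86), near the 3.86 of acetylated-only peaks and below the 4.98 and 9.83 of the classes on H3K4me3 with and without H3K27me3. Single values ran from 1.35 to 15.9. The strongest H3K27me3 peak met by each member had a median fold enrichment of 5.06, with a range of 1.39 to 23.5. The widest H3K27me3 peak met by each had a median width of 843 bp and ranged from 200 to 57485 bp, so the sites included both small H3K27me3 islands and long domains.

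The acetylated stretch was mostly covered by H3K27me3. The median overlap was 269 bp (262 to 279), with quartiles of 207 and 435.5 bp and a range of 2 to 9825 bp. This came to a median of 96.8% of the H3K27ac peak, and 1496 peaks (80.6%) were covered over at least 50% of their length. In 891 cases (48.0%) the H3K27ac peak lay wholly inside an H3K27me3 peak. In 294 (15.8%) it held a whole H3K27me3 peak, and in 670 (36.1%) the peaks overlapped at their edges. A single H3K27me3 peak was involved at 1669 sites, 2 at 146 and 3 or more at 40.

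The summits of the marks, the positions of highest signal within a peak, were apart by a median of 244 bp (227 to 269; quartiles 87.5 and 876). They lay within 150 bp of each other at 692 sites (37.3%) and more than 1 kb apart at 426 (23.0%), with the longest distance at 33000 bp. The H3K27ac summit was inside an H3K27me3 peak at 1525 sites (82.2%), and both summits lay inside the other mark's peak at 731 (39.4%). Where the H3K27ac peak was nested in H3K27me3, the H3K27me3 peak was wide (median 2698 bp, fold enrichment 7.06) and the summits were a median of 543 bp apart. Where it held an H3K27me3 peak, H3K27ac was wide and stronger (1006 bp, fold enrichment 4.79) and the H3K27me3 peak was small (345 bp). At the limit of the rule, 10 members had an overlap of at most 10 bp and a median H3K27ac fold enrichment of 3.69, and 7 non-members with a gap under 10 bp had 3.63.

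**Figure D1:**
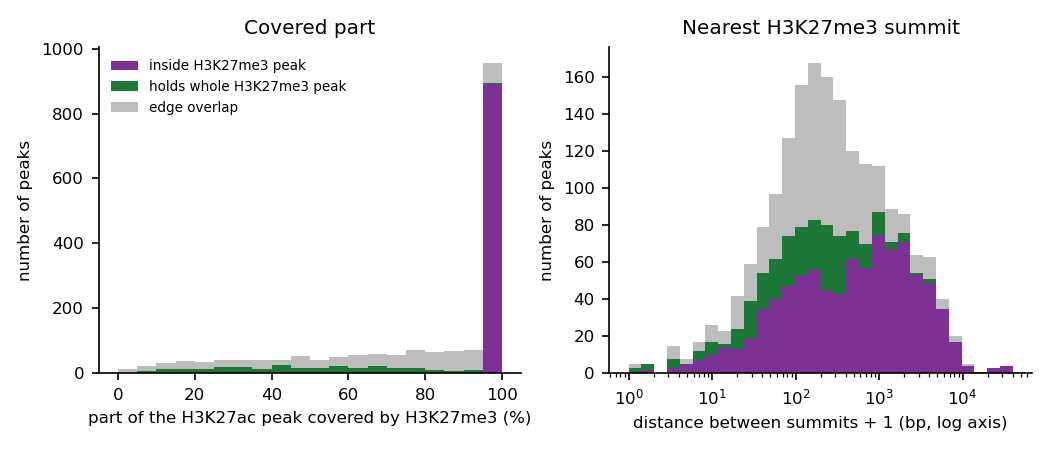
Histograms over the 1855 dual-marked peaks of the percentage of the H3K27ac peak covered by H3K27me3 (left) and of the distance in bp between the H3K27ac summit and the nearest summit of an overlapping H3K27me3 peak (right, log axis, 1 bp added). Bars are stacked by geometry: 891 peaks lay inside an H3K27me3 peak, 294 held a whole one and 670 overlapped at an edge, and peaks inside H3K27me3 made up most of the long summit distances.

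The sites were off H3K4me3 by rule, and most were also far from it. The median gap to the nearest H3K4me3 peak was 16963 bp, against 18137.5 bp for acetylated-only peaks. An H3K4me3 peak lay within 1 kb of 148 sites and within 5 kb of 491 (26.5%). Dual-marked peaks were thus mostly not the flank of an H3K4me3 peak.

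Peaks of EZH2 and SUZ12, which the rule did not use, were rare at dual-marked sites and almost absent from acetylated-only sites. EZH2 peaks overlapped 103 dual-marked peaks, 5.55% (4.60 to 6.69), where the background was 0.224% over H3K27ac peaks off H3K4me3 and 8.98% over all H3K27ac peaks. Acetylated-only peaks had EZH2 in 56 of 69218 cases, 0.0809% (0.0623 to 0.105). SUZ12 peaks overlapped 148, 7.98% (6.83 to 9.30), against a background of 0.219% off H3K4me3 and 1.05% over all H3K27ac peaks. Acetylated-only peaks had SUZ12 in 8 cases (0.0116%, 0.00586 to 0.0228). Either subunit was called at 159 sites (8.57%, 7.38 to 9.93) and both at 92, with EZH2 alone at 11 and SUZ12 alone at 56. These shares were far below those of dual-marked H3K4me3 peaks, of which 71.1% met EZH2 and 59.1% SUZ12.

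The acetyltransferase p300 showed the opposite order off H3K4me3. It had a peak at 2 dual-marked sites, 0.108% (0.0296 to 0.392), against 1823 acetylated-only sites, 2.63% (2.52 to 2.76), and a background of 2.57% off H3K4me3 and 12.9% over all H3K27ac peaks. On H3K4me3 peaks with and without H3K27me3 the p300 share was 22.9% and 61.7%. One of the 2 sites lay nearest Fosb, an AP-1 subunit gene (chr7:19319518-19319873, p300 fold enrichment 8.01, H3K27ac 2.91). The other lay in Nrtn, which encodes the neurotrophic factor neurturin (chr17:56754015-56755357, p300 3.54, H3K27ac 7.76), and also met an N-MYC peak of 4.39.

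N-MYC shares of the classes off H3K4me3 lay near each other. N-MYC peaks overlapped 24 dual-marked peaks, 1.29% (0.871 to 1.92), and 1085 acetylated-only peaks, 1.57% (1.48 to 1.66), with a background of 1.56% off H3K4me3 and 9.93% over all H3K27ac peaks. The intervals overlapped. N-MYC lay at 27% and 48.7% of the H3K4me3 classes with and without H3K27me3. Of the 24 sites, 9 had both PRC2 subunits, 2 had SUZ12 alone, 1 had EZH2 alone, 1 had p300 and 11 had no other factor. In all, 1683 of the 1855 dual-marked peaks met a peak of none of the 4 factors.

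**Figure D2:**
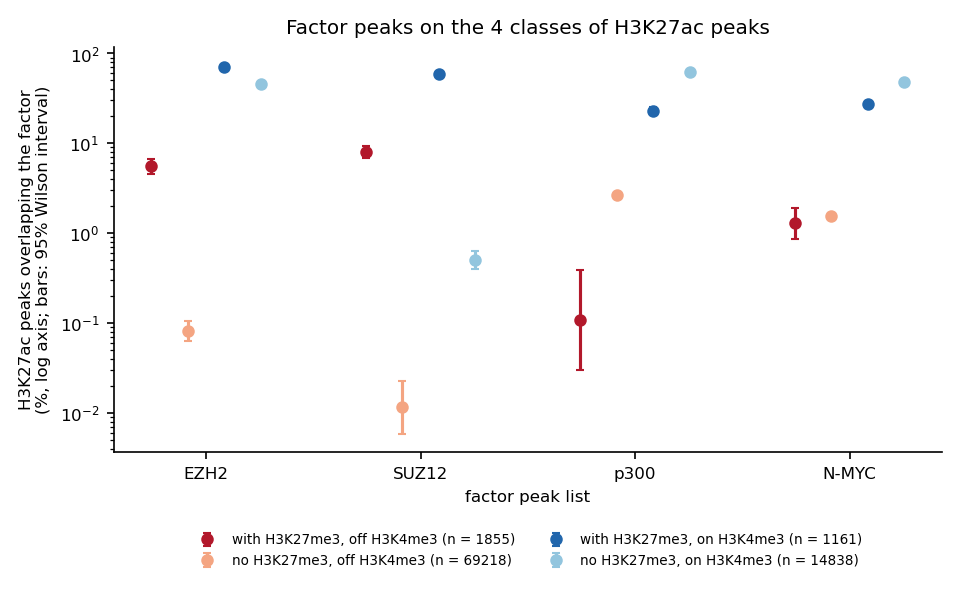
Share of H3K27ac peaks that overlapped a peak of EZH2, SUZ12, p300 or N-MYC (percent, log axis) in the 4 classes of H3K27ac peaks. Points are shares of 1 peak list per antibody and bars are 95% Wilson intervals, hidden where smaller than the point. Dual-marked peaks off H3K4me3 (dark red) lay above acetylated-only peaks (light orange) for EZH2 and SUZ12, below them for p300, and overlapped their interval for N-MYC.

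The strength of H3K27ac, a value the rule did not set beyond a call, moved with p300 and N-MYC among acetylated-only peaks but not visibly among dual-marked ones. When the peaks off H3K4me3 were divided into 4 classes at the quartiles of H3K27ac fold enrichment (3.32, 3.86 and 4.65), p300 lay at 0.326, 0.361, 0.521 and 9.33% of acetylated-only peaks from the weakest to the strongest fold class. Among dual-marked peaks it lay at 1 of 470, 0 of 503, 0 of 461 and 1 of 421 (0.238%, 0.0419 to 1.33). In the strongest class, where the p300 list had most of its distal overlaps, the shares therefore differed beyond counting error. N-MYC shares at dual-marked peaks were 0.851, 1.39, 1.08 and 1.90% in the same order, against 0.223, 0.180, 0.359 and 5.51% at acetylated-only peaks. In the strongest class the N-MYC share was thus lower at dual-marked peaks (0.966 to 3.70) than at acetylated-only ones (5.18 to 5.86), and in the 3 weaker classes it was higher. In the weakest class, however, 3 of the 4 dual-marked peaks with N-MYC lay at a ribosomal RNA gene copy on chromosome 17. The higher share in that class came from this copy alone. SUZ12 shares at dual-marked peaks were 6.81, 8.15, 6.51 and 10.7%, with no class above 0.0290% at acetylated-only peaks.

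The width of the H3K27me3 peak went with the PRC2 calls. SUZ12 lay at 0.774% of the 646 dual-marked peaks whose widest H3K27me3 peak was under 0.5 kb, at 0.829% of 362 with 0.5 to 1 kb, at 2.35% of 213 with 1 to 2 kb, at 11% of 282 with 2 to 5 kb, at 24% of 225 with 5 to 10 kb and at 39.4% of 127 with over 10 kb. EZH2 shares in the same order were 0.464, 0, 2.35, 8.51, 16.0 and 27.6%. The same steps were read from the side of H3K27me3, comparing the 1561 H3K27me3 peaks off H3K4me3 that met a dual-marked peak with the 119145 that met no H3K27ac peak. Over all widths SUZ12 lay on 6.41% (5.30 to 7.73) of the former and 2.62% (2.53 to 2.71) of the latter, and EZH2 on 5.12% and 2.39%.

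Within width classes the SUZ12 intervals lay apart in 3 classes and the EZH2 intervals in none. Under 0.5 kb SUZ12 lay on 0.613% (0.262 to 1.43) of H3K27me3 peaks with a dual-marked peak and on 0.0992% (0.0793 to 0.124) of those without H3K27ac. From 0.5 to 1 kb the SUZ12 shares were 1.39% (0.593 to 3.20) and 0.275% (0.216 to 0.350), and from 2 to 5 kb 28 of 140 (14.2 to 27.4%) and 13.1% (12.2 to 14.0). In these 3 classes the share was higher with a dual-marked peak beyond counting error. From 1 to 2 kb the SUZ12 intervals overlapped, with 3.14% (1.35 to 7.15) and 1.16% (0.964 to 1.39). Above 5 kb they overlapped as well, with 59.1% and 62.2% up to 10 kb, and 18 of 20 (69.9 to 97.2%) and 88.2% (85.9 to 90.2) beyond. For EZH2 the intervals overlapped in every class, including 17.1% (11.8 to 24.2) and 11.5% (10.7 to 12.4) from 2 to 5 kb and 15 of 20 (53.1 to 88.8%) and 86.8% (84.4 to 88.9) over 10 kb. Above 5 kb the dual-marked H3K27ac peak itself, a small piece of its domain, met PRC2 less often than the domain did.

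**Figure D3:**
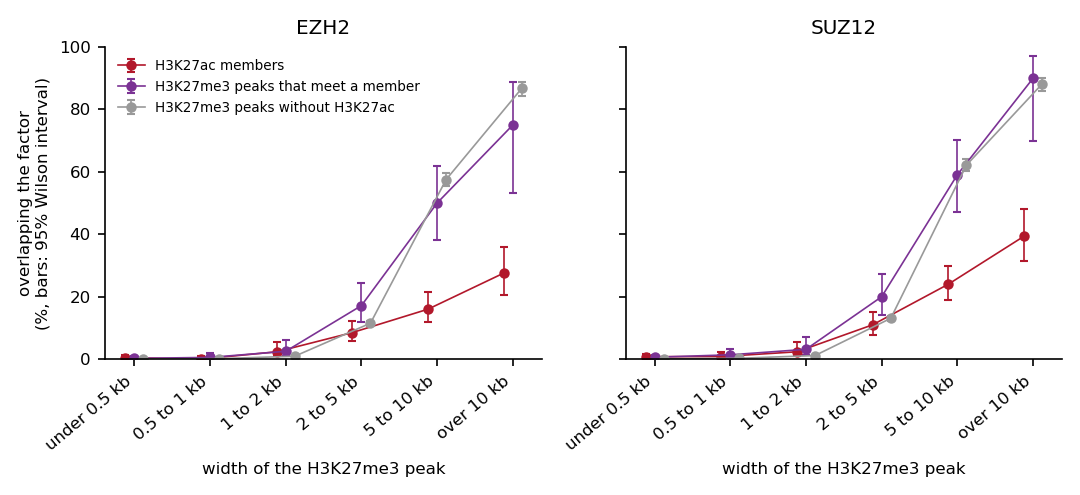
Share with an EZH2 (left) or SUZ12 (right) peak (percent) by width of the H3K27me3 peak, for dual-marked H3K27ac peaks (red, widest H3K27me3 peak met), H3K27me3 peaks that met one (purple) and H3K27me3 peaks without H3K27ac (grey). Bars are 95% Wilson intervals; shares are highest for the widest H3K27me3 peaks, and above 5 kb the purple and grey intervals overlap while the red points lie below them.

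The 159 dual-marked peaks with EZH2 or SUZ12 differed from the other 1696 in their H3K27me3 and their location, not in H3K27ac. Median H3K27ac fold enrichment was 3.91 with and 3.79 without PRC2, with overlapping intervals. Median H3K27me3 fold enrichment was 11.9 against 4.84, and median H3K27me3 width 7415 against 722 bp. Of the PRC2 sites 84.9% were nested in H3K27me3, against 44.6%, and 68.6% (61 to 75.3) lay within 5 kb of an end of a protein-coding gene, against 508 of 1696 (27.8 to 32.2%). The sites with PRC2 thus sat near genes inside long, strong H3K27me3 domains.

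Among sites with both PRC2 subunits, the one that met the strongest EZH2 peak lay 2143 bp from Tal1. This gene encodes a basic helix-loop-helix factor of blood stem cells and red cell precursors and is an oncogene in T-cell leukaemia. The site spanned chr4:115053556-115054476, with H3K27ac of 4.77. It met peaks of 18.9 for EZH2, 18.3 for SUZ12 and 23.3 for H3K27me3. These values belong to whole wide peaks, of which the site of 921 bp met a part. The EZH2 and SUZ12 peaks ran on over the H3K4me3 peak that lay 1589 bp from the site. The H3K27me3 summit was 3050 bp from that of H3K27ac. A neighbouring member, chr4:115052082-115053454, had a stronger H3K27ac peak of 8.55 and weaker EZH2 and SUZ12 peaks of 7.04 and 5.36. Next in EZH2 were 2 adjacent members in Nfia, which encodes a nuclear factor I protein, that met the same EZH2 peak of 17.9 and SUZ12 peak of 15.0. Sites nearest Rhbdf1, an inactive rhomboid gene beside the alpha globin cluster (EZH2 15.9, SUZ12 11.5), and BC107364 (13.6 and 14.2) completed the 5 strongest. Over all sites, EZH2 peaks had a median fold enrichment of 5.12, near the 4.79 of the whole EZH2 list, and SUZ12 peaks 4.48 against 3.99.

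The sites with the strongest H3K27me3 lay by Reln, which encodes the secreted glycoprotein reelin (23.5, 2 members on the same H3K27me3 peak), and by Tal1 and its neighbour Stil (23.3, 4 members on the same H3K27me3 peak). H3K27ac was strongest at a site in Sall3, a zinc-finger gene (15.9), and at sites nearest Ndufb4 (11.5), Usp12 (10.8), Slc4a1 (10.1) and Aqp9 (9.92). At 4 of these 5 sites, all but that of Slc4a1, H3K27me3 covered 9.40% (Ndufb4) to 16.6% (Usp12) of the H3K27ac peak, so strong acetylation there met H3K27me3 over a small stretch. Nearest Slc4a1, the anion exchanger gene of red cells, the peak chr11:102372056-102377053 was covered over its whole 4998 bp by H3K27me3 of 8.23, with EZH2 of 4.92 and SUZ12 of 4.47.

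Long overlaps lay in or nearest a few other genes. The longest, 9825 bp at chr9:95547794-95557618, lay 4222 bp from Paqr9, a gene of the progestin and adipoQ receptor family, with H3K27ac of 5.83, H3K27me3 of 20.2, EZH2 of 7.91 and SUZ12 of 10.8. The next lay nearest Add3, encoding gamma adducin (5326 bp), Slc4a1, Dusp8, a phosphatase of MAP kinases (4488 bp), Pcx, encoding pyruvate carboxylase (4372 and 4143 bp), Vps8 (4105 bp), Cdkl1, a kinase gene (4039 and 4009 bp), and Lpcat1, a lysophospholipid acyltransferase (4001 bp). The sites named by Add3, Slc4a1, Vps8 and Lpcat1 were 11066, 11379, 63883 and 24157 bp from these genes. Of these 10 sites, PRC2 peaks lay on those of Paqr9, Slc4a1 and Dusp8 and on none of the other 7. The highest N-MYC values at dual-marked peaks were 9.59 nearest Opa1, 8.90 in Gpr153, 7.29 at Adgrb1, 6.96 at Cilp2 and 6.00 at Artn. The site named by Opa1 lay 151394 bp from that gene and 198 bp from an H3K4me3 peak. The sites of Gpr153, Adgrb1 and Cilp2 also met EZH2 and SUZ12, that of Artn met SUZ12, and that of Opa1 met neither. The median over all 24 was 4.21, below the 5.38 of the whole N-MYC list.

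Relative to genes, dual-marked peaks lay outside gene bodies more often and near gene ends more often than acetylated-only peaks. A summit within a protein-coding gene body was found for 47.8% (45.6 to 50.1) against 61.8%. A gene end lay within 5 kb of the summit for 617 peaks, 33.3% (31.2 to 35.4), against 24.8%, where the background over all H3K27ac peaks off H3K4me3 was 25.0%. The median distance to a gene end was 11110 bp against 14630 bp. Gene ends were used because strand was known for part of the genes, and exon or intron was not read. Measured to transcript starts of the promoter table, 22.3% lay within 5 kb against 13.6%.

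Chromosomes contributed unevenly. Dual-marked peaks made up 3.78% (3.22 to 4.43) of the H3K27ac peaks off H3K4me3 on chromosome 6 and 3.76% on chromosome 4, but 1.25% (0.958 to 1.63) on chromosome 9 and 1.34% on chromosome 15. Chromosomes 2 and 11 held most, with 196 and 186 peaks. The X chromosome had 12, and none of the 7 such H3K27ac peaks of the Y chromosome was dual-marked.

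Dual-marked peaks were gathered in runs along the genome. Runs of acetylated-only peaks or of H3K27me3 peaks were not read, so this is not shown to be particular to dual-marked peaks. When members within 12.5 kb of each other were joined, they formed 762 clusters. Of these, 431 were single peaks, 239 held 2 to 4 members, 72 held 5 to 10, and 20 held 11 or more and together 334 members (18.0%). Members of larger clusters had stronger H3K27me3 and met PRC2 less often: median H3K27me3 fold enrichment was 4.47, 4.77, 5.34 and 6.15 from single peaks to the largest clusters, while the share of members with EZH2 or SUZ12 was 12.1% (9.32 to 15.5), 9.79, 7.49 and 3.29% (1.85 to 5.80). Members of a cluster share their domain and are not independent. At least 1 member with EZH2 or SUZ12 was found in 52 of 431 single peaks, 38 of 239 clusters of 2 to 4, 18 of 72 of 5 to 10 and 8 of 20 of 11 or more (21.9 to 61.3%). A larger cluster has more members that can meet such a peak. This rise per cluster is therefore partly set by size and does not counter the lower share per member. Over all 762 clusters, 10.8% had an EZH2 and 14.2% a SUZ12 peak on a member.

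The largest cluster, chr1:135861176-135944446 around Pkp1, encoding the desmosomal protein plakophilin, held 40 dual-marked peaks among its 41 H3K27ac peaks. H3K27me3 covered 86.6% of its 83.3 kb and H3K27ac 23.0%, with no H3K4me3, p300 or N-MYC peak. The list had 3 EZH2 and 7 SUZ12 peaks there, and SUZ12 met 2 of the members. The next, chr12:69753683-69814343 over Cdkl1 and Map4k5, held 36 of 37 H3K27ac peaks, and the one after, chr2:103922428-103965550 at and beside Lmo2, 23 of 26. At Cdkl1 and Lmo2 H3K27me3 covered 85.3 and 83.7% of the cluster and H3K27ac 41.3 and 34.9%. The Cdkl1 cluster held long members too, of 5917 and 4124 bp. Others with 15 or more members lay at Cd59a and Cd59b (18 of 25), Lpcat1 (18 of 18), Mgll (17 of 23), Nav2 (17 of 20), Tbxas1 (16 of 22), the alpha globin genes (16 of 18) and Pcx (15 of 16). Of these, Lpcat1 and Tbxas1 had more of the cluster under H3K27ac (72.3 and 65.2%) than under H3K27me3 (70.5 and 43.5%). The rest had more under H3K27me3.

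By nearest protein-coding gene, the 1855 peaks were assigned to 724 genes, of which 391 had 1 peak and 97 had 5 or more. The 10 genes with most peaks held 212 (11.4%). They were Pkp1 (33), the T-cell leukaemia oncogene Lmo2 (29), Cdkl1 (24), the Mediator kinase-module gene Med13l (22), the monoacylglycerol lipase Mgll (21), Lpcat1 (18), the guidance gene Nav2 (18), the G-protein regulator Rgs6 (16), the thromboxane synthase Tbxas1 (16) and Pcx (15). Median H3K27ac fold enrichment of these sets lay between 3.63 (Lmo2) and 4.30 (Tbxas1), near that of all members. None of these 212 peaks met p300 or N-MYC, and PRC2 met those of Pkp1, Lmo2, Cdkl1 and Med13l only, at 1 or 2 members for each subunit called.

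**Figure D4:**
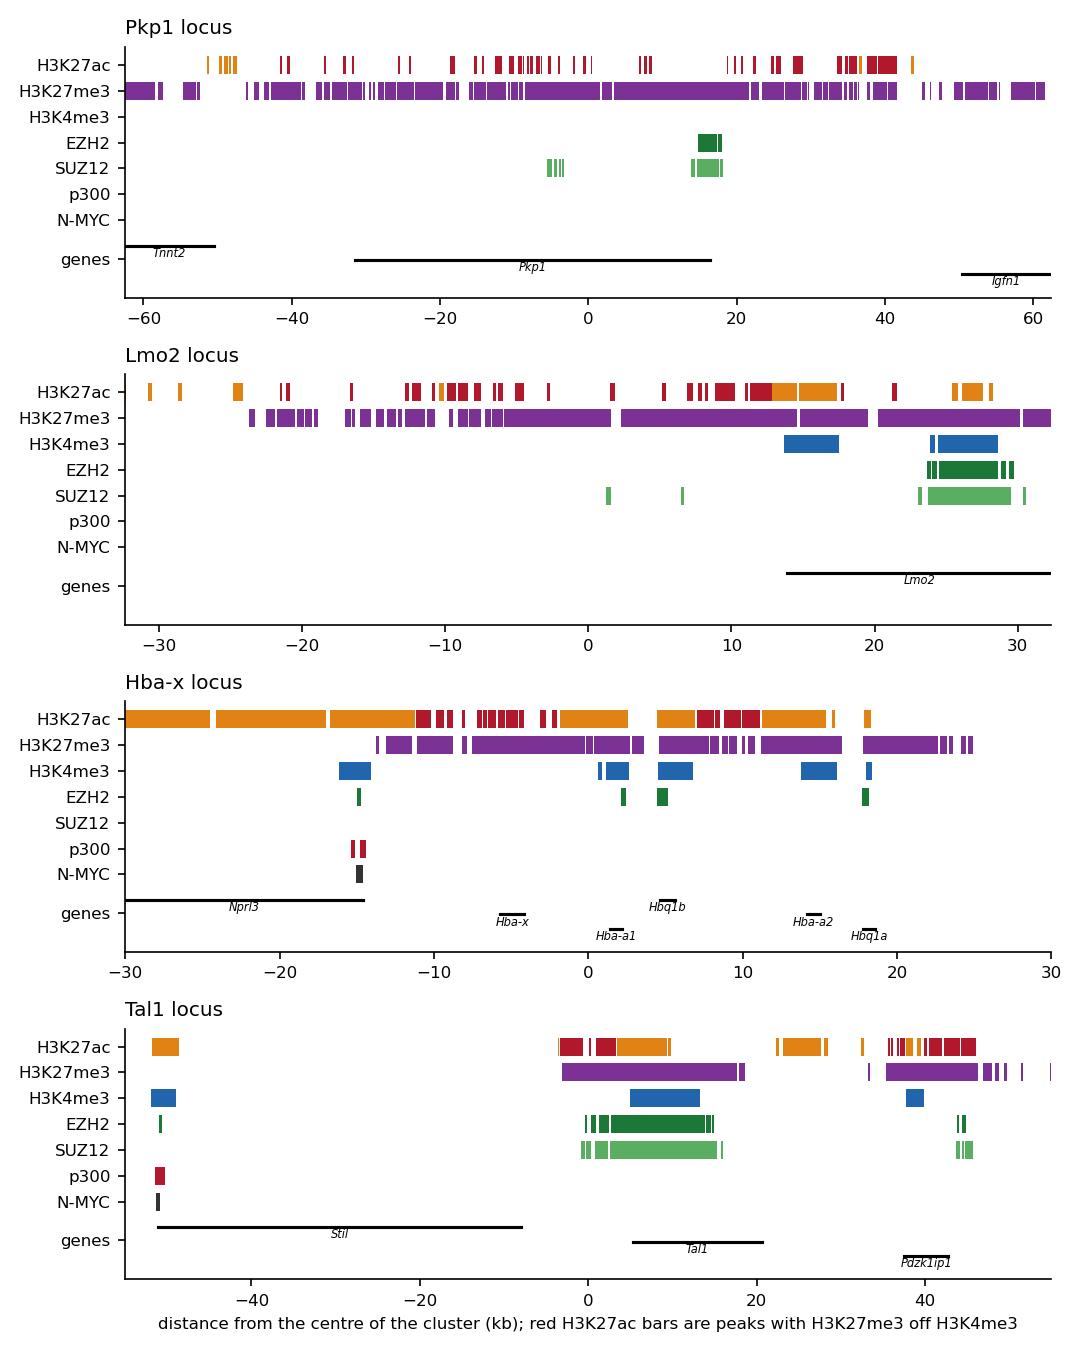
Peak calls of the 7 lists and protein-coding genes around 4 loci, as distance in kb from the centre of a cluster. Dual-marked H3K27ac peaks are red and other H3K27ac peaks orange. At Pkp1 40 dual-marked peaks lay among 43 H3K27me3 peaks that covered 86.6% of the cluster, without H3K4me3, and at Lmo2, the alpha globin genes and Tal1 they lay beside H3K4me3 peaks.

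The lists of genes used to describe the sites differed in how often a dual-marked peak lay within 5 kb of a gene body, against 2.85% of all 21887 protein-coding genes (624 genes). None of the 16 T-cell transcription factor genes and none of the 16 T-cell receptor and signalling genes had one. Of these 32 genes 24 had H3K27ac peaks off H3K4me3, 291 in all, and none of those peaks was dual-marked. At 32 genes a count of 0 allows a share of up to 10.7% (Wilson), so the background share cannot be told from it. The 12 cytokine and chemokine receptors, 12 effector genes, 8 B-cell genes, 8 myeloid and erythroid genes and 17 Polycomb and lysine 27 enzyme genes also had none. Over all 11 lists 8 of 143 genes (5.59%, 2.86 to 10.7) had a dual-marked peak, a share whose interval starts just above the background share. Among the 76 of these genes with H3K27ac off H3K4me3 the share was 10.5% (5.43 to 19.4), an interval that holds the 6.69% of all genes with such a peak.

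These 8 genes came from 4 of the lists. Among 12 Notch genes, Hes1, a repressor induced by Notch, had 1 peak with H3K27ac of 4.71, H3K27me3 of 11.4, EZH2 of 10.7 and SUZ12 of 12.4. The ligand gene Dll4 had 1, with H3K27ac of 5.32, H3K27me3 of 6.10, SUZ12 of 3.61 and N-MYC of 5.45. Among 20 developmental Polycomb targets, Hoxb4, Gata4 and Cdkn1c had 2, 3 and 2. Both Cdkn1c peaks, at a gene for an inhibitor of cyclin-dependent kinases, met EZH2 (up to 5.12) and SUZ12 (up to 5.72), and 1 met N-MYC (3.41). The Gata4 peaks had H3K27ac of 3.20 to 3.74, H3K27me3 of up to 3.88 and no factor.

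Among 14 leukaemia oncogenes, Tal1 had 3 dual-marked peaks within 5 kb and 12 within 25 kb, and Lmo2 5 and 18. The Tal1 peaks had H3K27ac of 4.13 to 8.55, and 2 met EZH2 and 3 SUZ12. Those of Lmo2, which encodes a LIM-domain partner of TAL1, had H3K27ac of 2.63 to 5.40 and H3K27me3 of up to 12.7 without EZH2 or SUZ12. Both genes also had an H3K4me3 peak within 1 kb of a gene end, of 19.9 at Tal1 and 6.57 at Lmo2, together with H3K27ac of 8.81 and 7.34. Farther inside the Lmo2 gene body lay a stronger H3K4me3 peak of 20.8, which met an EZH2 peak of 16.1 and a SUZ12 peak of 10.4. Among 8 thymic stroma genes the collagen gene Col1a1 had 2 dual-marked peaks (H3K27ac 3.80 to 4.48, H3K27me3 up to 7.50) and no H3K27ac or H3K4me3 peak at its ends.

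**Figure D5:**
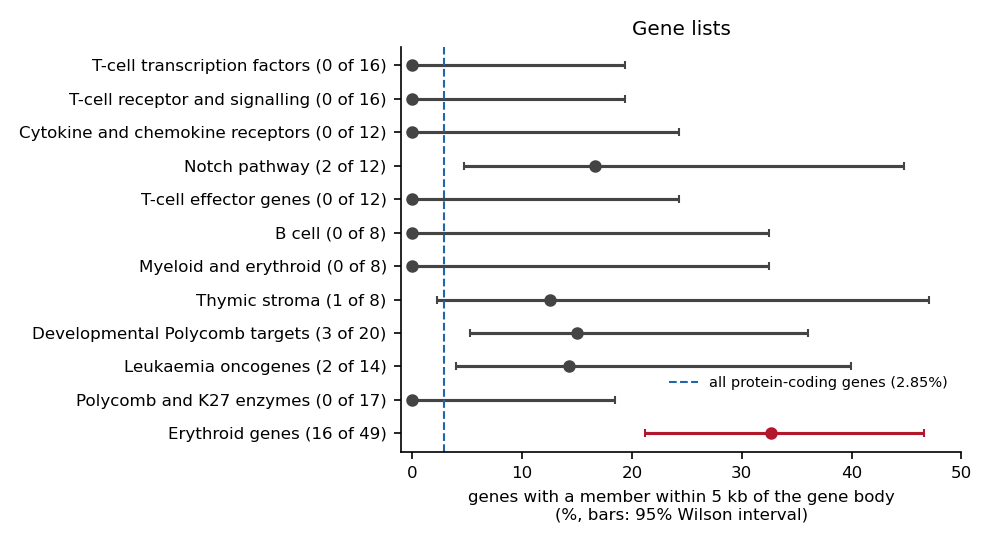
Share of genes with a dual-marked peak within 5 kb of the gene body (percent) for 11 lists and for the erythroid genes (red), a list written after the sites had been seen. Bars are 95% Wilson intervals and the dashed line is the share over all protein-coding genes, 2.85%. A dual-marked peak lay at 16 of 49 erythroid genes, a share that depends on this choice of genes and is not comparable with the fixed lists.

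Several sites named above lay at genes of red cell precursors, and a list of 50 such genes, of which 49 matched, was written after these values were seen. The list held genes of sites already named, such as Slc4a1 and Tal1, so a high share was partly built in. It is therefore given as a count without a test, and the interval does not cover the choice of genes. The fixed list of myeloid and erythroid genes had a dual-marked peak at 0 of 8. Of the 49 matched genes of the later list, 16 had a dual-marked peak within 5 kb, 32.7% (21.2 to 46.6), with 56 peaks in all. These were 17.6% of the 319 H3K27ac peaks off H3K4me3 at these genes, against 2.40% over all protein-coding genes. Restricted to genes with such an H3K27ac peak, 16 of 45 (35.6%) had a dual-marked one, against 6.69% of 9328 genes. Both differences from all genes were partly set by the choice of genes and are not evidence of enrichment.

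Among these genes, the alpha globin locus held the cluster with the most dual-marked peaks. The embryonic zeta globin gene Hba-x, whose promoter sequence is printed above, had 12 dual-marked peaks with H3K27ac of 2.75 to 5.34 and H3K27me3 of up to 10.4. The adult alpha globin genes Hba-a1 and Hba-a2 had 3 and 2, with some peaks near more than 1 of these genes. In the cluster chr11:32271163-32293418, 16 of 18 H3K27ac peaks were dual-marked, H3K27me3 covered 85.0% of its 22.3 kb, and 3 H3K4me3 peaks reached a fold enrichment of 18.3. EZH2 had 2 peaks in it and SUZ12, p300 and N-MYC none, and no dual-marked peak met any of these. The beta globin genes Hbb-bt and Hbb-bs had no dual-marked peak and no H3K27me3 peak within 1 kb of a gene end, but H3K4me3 of 19.7 and 19.8.

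Among genes of the red cell membrane, the adducin gene Add2 had 9 dual-marked peaks (H3K27ac 2.59 to 4.18, H3K27me3 up to 7.82) and the ankyrin gene Ank1 5 (3.86 to 9.33, up to 16.1). Neither gene had H3K27ac or H3K4me3 at its ends. The blood group genes Rhd and Kel had 2 and 1 and Slc4a1 1, and these 3 had H3K4me3 at a gene end of 18.6, 12 and 13.1. Trim10, a gene needed for late red cell differentiation, had 6 (2.63 to 6.83, up to 17.9), Slc6a9, a glycine transporter, 4, Tspan33 and the carbonic anhydrase Car2 3 each, and Pklr, the red cell pyruvate kinase, 2. The erythropoietin receptor gene Epor and the factor gene Gfi1b had 1 each. Of the 16 genes, PRC2 met the dual-marked peaks of Tal1, Ank1, Car2, Rhd and Trim10.

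Calls at genes of other cell types are given beside this, since peak calls do not measure cell shares. Of the 49 erythroid genes 39 had H3K4me3, 43 H3K27ac and 20 H3K27me3 within 1 kb of a gene end. The fixed marker lists for other cells had H3K4me3 at 4 of 8 B-cell genes (not at Pax5 or Ebf1), at 3 of 8 myeloid and erythroid genes (Cebpa, Cebpb and Klf1, and none at Spi1, Csf1r, Itgam, Gata1 or Gata2) and at 1 of 8 stroma genes (Epcam). Of the 8 myeloid and erythroid genes 6 had H3K27ac at an end, with 19.8 at Spi1, 4.82 at Csf1r, 4.59 at Itgam and 4.42 at Gata1 among those without H3K4me3. The part of other cells in the dual-marked peaks was not tested.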

How the data were processed

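The 7 antibodies each yielded a single deposited peak list without a header, on builds mm10 and GRCm38 per the submitters' processing notes, which name FastQC, Bowtie2, SAMtools, MACS2 and deepTools. Versions, parameters, the control library and any pooling are not given in the sources used here. Per the layout of the deposited files, the values per peak are a fold enrichment (a linear ratio over background) and −log10 of its q-value and p-value. The score column deposited by the authors, 10 times the −log10 q, entered no result. The smallest −log10 q of a list was 2.00 to 2.08 as deposited. The number of reads, and so the depth and the precision it gives, is unknown.

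Overlaps of at least 1 bp, shares with 95% Wilson intervals, medians and distances were computed with Python 3.11.15, pandas 2.3.3, numpy 2.4.6 and SciPy 1.17.1, and the overlap step was tested on simulated data. With 1 library per antibody no test was run. Genes and promoters are RefSeq, GRCm38.p6. Distance to either gene end replaced the planned transcript starts, since the promoter table holds 17492 of 21887 protein-coding genes (79.9%), and promoter windows replaced windows at summits because no genome was used here. Marker calls were read within 1 kb of a gene end. A region is named by its nearest protein-coding gene. The regions named are the 10 with the longest overlap, the 5 with the highest H3K27ac, H3K27me3, EZH2 (with SUZ12), p300 or N-MYC fold enrichment (p300 had 2), the 10 genes nearest most members, and all genes of 11 lists with a member within 5 kb. Members and lists were chosen with earlier results of these data known. Clusters, the erythroid list, the printed promoters and the divisions by width and strength were chosen after seeing the data, and the alternatives tried are given in the closing section.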

Additional observations from a re-analysis of the deposited data

How the results depend on the processing

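Of 61 alternatives over 14 results, 36 moved the value by less than its interval (or a count by less than 1.5 times) and 25 by more. The 1 bp rule, the authors' threshold and the joining of peaks set the number of sites. With a q-value of at most 1e-05 there were 1009 members (median overlap 364 bp, summit distance 318 bp), and with fold enrichment of at least 4 in every list 613 (EZH2 7.34%, N-MYC 2.28%, overlap 411 bp, summit distance 367 bp). Merging H3K27ac peaks within 1 kb gave 939 (N-MYC 2.24%, near a gene end 29.5%, overlap 304 bp). Asking for 50% of the shorter peak gave N-MYC 0.652% and an overlap of 284 bp. With the H3K27ac summit inside H3K27me3, SUZ12 was 9.38%, the overlap 289 bp and the summit distance 207 bp. Without members that had H3K4me3 within 1 kb, EZH2 was 4.16%, SUZ12 6.21% and the share near a gene end 29.7%. Alternatives added after seeing the data gave 22.3% near a transcript start, 10.8% EZH2, 14.2% SUZ12 and 2.76% N-MYC by cluster, and 5.45% of all genes with a member within 25 kb. Leaving out the 3 members at the ribosomal RNA copy gave N-MYC 1.13%. In every alternative the p300 share was 0.0991 to 0.319%. No paired analysis was possible because each antibody had 1 library, and no library could be left out. Unknown depth limits all shares.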

Other observations

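At a ribosomal RNA gene copy on chromosome 17 (Rn18s-rs5, chr17:39846354-39848202), 6 of the 7 lists had peaks within 10 kb, and H3K4me3 had none. The 3 dual-marked peaks there had H3K27ac fold enrichments of 1.35 to 1.62 and all met the same N-MYC peak of 1.68. The hairpin of Mir681 (chr12:69763835-69763944) lay inside a dual-marked peak in Cdkl1 with H3K27ac of 7.51 and H3K27me3 of 8.85. The median gap from a dual-marked peak to the nearest peak of a factor was 17986 bp for EZH2, 26931 bp for SUZ12, 49520 bp for p300 and 55977 bp for N-MYC. For acetylated-only peaks these gaps were 32985.5, 164813, 17295 and 26187 bp, so PRC2 peaks lay nearer to dual-marked peaks and p300 and N-MYC peaks nearer to acetylated-only ones.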
